A study of Mus musculus with 4 samples.

Results

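The genes described here are those by which the subsets of T cells are told apart and those that carry the costimulatory signal: Cd4, Cd8a, Cd8b1, Cd28, Ctla4, Icos, Foxp3, Il7r, Tcf7 and Lef1. They were chosen by name, with earlier results of these data known. Every probe of the array annotated to one of these symbols was taken, whatever its value. Of the 10 listed genes 9 had a probe, with 18 probes in all among the 25697 probes and 16593 gene symbols of the array. No probe was matched to Tcf7. Detected here means a detection p under 0.05 on the array in question, the detection p being the chance of so bright a signal from background alone. Probes of a gene are numbered from the brightest. Of the 18 probes 13 were detected on all 4 arrays, 2 on 3 arrays and 3 on no array. A test was made where a probe was detected on both WT arrays or on both KO arrays, which held for 15 member probes of 8 genes. The 1 probe of Cd8a was among the 3 not detected, and Icos probe 2 and Foxp3 probe 2, with both KO arrays but 1 WT array detected, passed the filter through KO.

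Gene expression was measured with Illumina MouseRef-8 v2.0 bead arrays in total RNA from spleens of female C57BL/6N mice aged 8 to 12 weeks per the labels, 2 wild type (WT) and 2 Snd1 knockout (KO), 1 array a sample. Snd1 encodes an RNA-binding protein with roles in transcription, splicing and microRNA decay, and the comparison asks how its loss bears on gene expression in the spleen. According to the study's methods, pieces of spleen were homogenised whole in Trizol, so that all cell types of the organ contribute to each value. In the KO mice the first exon of Snd1 was deleted in the germline by Cre recombinase driven by the broadly active CAG promoter, after gene targeting in R1 embryonic stem cells of the 129/Sv strain. The deleted line was then backcrossed to C57BL/6N, and littermates from heterozygous parents were compared. Both groups received no treatment that the sources used here name.

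A T cell needs a signal from its antigen receptor and a costimulatory signal to be activated. CD4 and CD8 are coreceptors that bind class II and class I major histocompatibility molecules, and they divide mature T cells into helper and cytotoxic lineages. CD28 gives the main costimulatory signal on binding CD80 or CD86, CTLA-4 competes with CD28 for these ligands and restrains the response, and ICOS is a related receptor that appears after activation. FOXP3 is the lineage factor of regulatory T cells, which carry much CTLA-4. The IL-7 receptor chain and the transcription factors TCF-1 (Tcf7) and LEF-1 mark naive and long-lived memory T cells.

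Snd1 itself, the deleted gene, read 6.71 and 7.09 on WT replicates 1 and 2 and 4.45 and 4.58 on KO replicates 1 and 2 (normalized log2 intensity), and its probe was not above background on either KO array. It was at least 3.87-fold lower in KO, with a difference of -2.39 ± 0.19 (log2, SE) and an adjusted p of 0.0869 (limma). The sources used here do not give the place of this probe relative to the deleted exon. Between 12396 and 12908 probes were detected on an array, and pairs of arrays correlated at r = 0.972 to 0.984 over the tested probes. All 11 B cell genes and all 9 macrophage genes listed were detected on every array, and of 17 pan T cell genes 14 to 16, so that the labelled tissue was borne out by its markers. The KO arrays also carried signal from other tissues. The summed linear level of 8 exocrine pancreas genes was 4729 on KO replicate 1 and 203 to 213 on the other arrays. That of 7 adipocyte genes was 1350 on KO replicate 2 and 226 on KO replicate 1, against 171 and 160 on the WT arrays. The list for the mesothelium, the lining of the abdominal organs, also stood higher on both KO arrays. Its 7 genes summed to 524 and 582 in WT and 1126 and 1255 in KO, and all 4 that were tested, 1 of them detected in KO only, were higher at an unadjusted p under 0.05 (smallest adjusted p = 0.0801, limma). The part of these tissues in the values below was not tested.

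None of the genes that mark T cell subsets or carry costimulation passed the test between KO and WT spleens. Of the 15 tested probes 0 had an adjusted p under 0.05 (limma with Benjamini-Hochberg adjustment over 12493 tested probes), and over all tested probes 0.0160% did. Their adjusted p-values lay between 0.771 and 0.998. At an unadjusted p under 0.05, 1 member probe was lower in KO and 0 were higher, a share set beside 2.78% of all probes lower and 6.09% in either direction. The mean was higher in KO for 6 probes and lower for 9, with a median difference of -0.06 (log2), against -0.01 over all tested probes. The sizes of the changes ran from 1.00-fold to 1.7-fold. In 1 probe both KO arrays lay above both WT arrays, as in 19.4% of all tested probes, and in 1 both lay below, as in 18.5%. In the other 13 the groups overlapped. Over all tested probes the share without overlap was 37.9%. Since 4 arrays were measured, their number limits the precision, and the 95% interval of the difference reached a median of 0.60 (log2) to either side of a member's value. With 2 arrays a group any change inside a member's interval remains possible, and larger differences can also fail the adjusted threshold. The deleted gene Snd1 itself, at -2.39 (log2), had an adjusted p of 0.0869 (limma). A spread between the arrays may be technical in part, since nothing in the labels says more of the duplicates than that they are biological. In whole spleen, fewer cells of a type and less RNA per cell cannot be told apart.

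**Figure D1:**
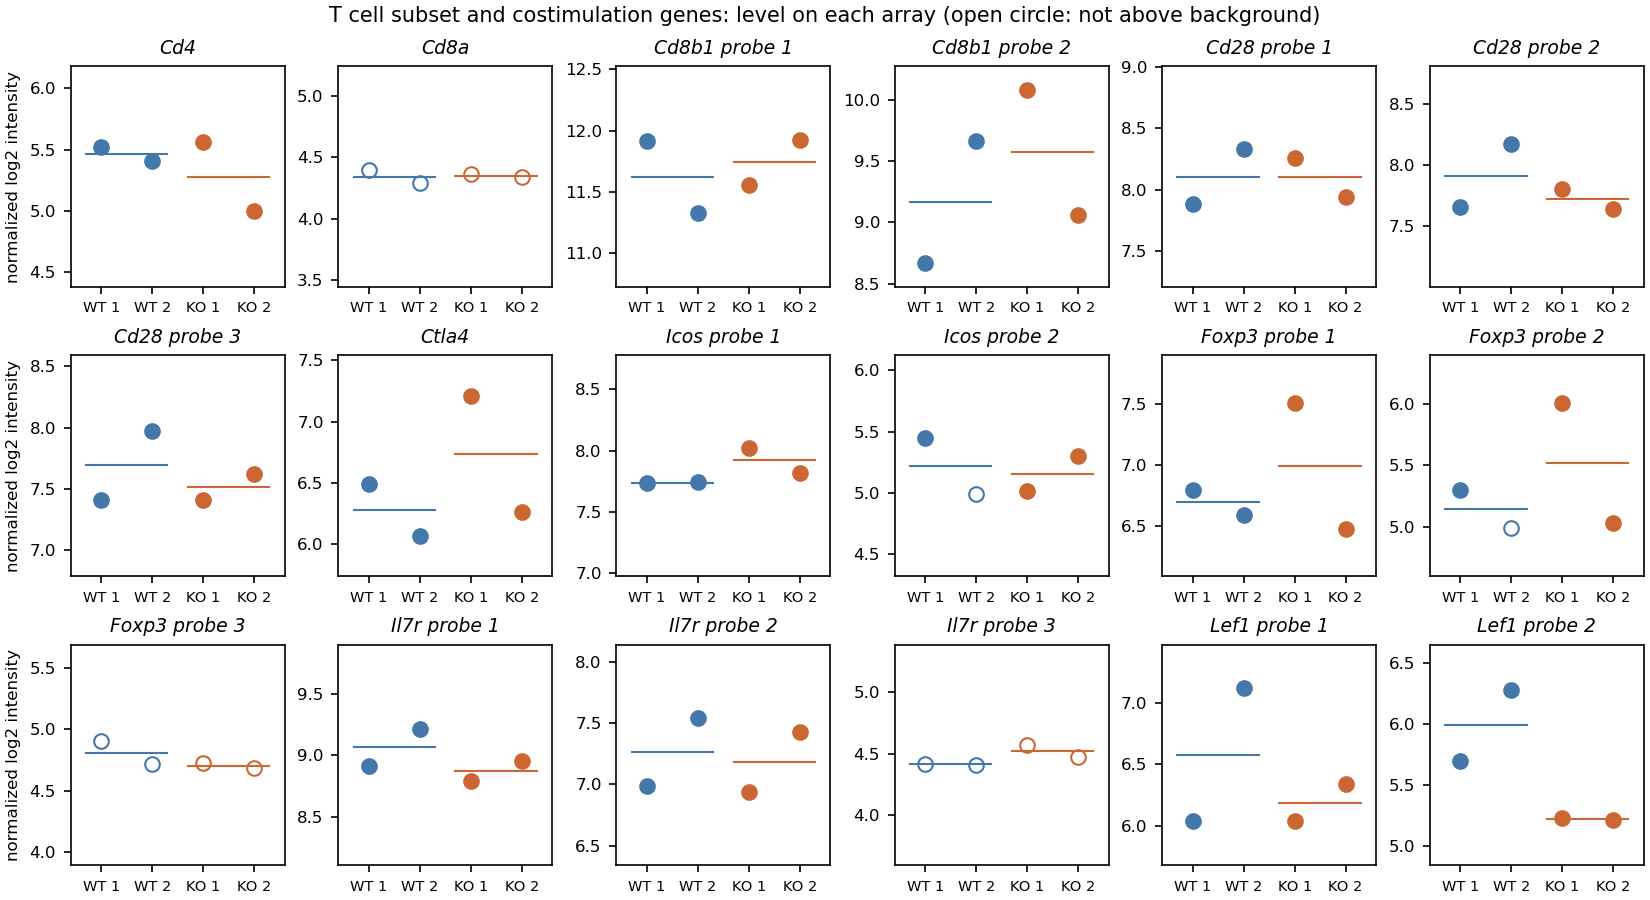
Normalized log2 intensity (vertical axis, 1.8 log2 units in every panel) of each of the 18 probes on WT replicates 1 and 2 (blue) and KO replicates 1 and 2 (orange), with the mean of each group as a line. Open circles are values not above background. The points of both groups interleave in most panels, Foxp3 probes 1 and 2 and Ctla4 stand high on KO replicate 1 alone, and Lef1 probe 2 is lower on both KO arrays.

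Cd4, the coreceptor of helper T cells, was measured by 1 dim probe (ILMN_1249663). It read 5.52 and 5.41 on the WT arrays and 5.56 and 5.0 on the KO arrays, so the highest and the lowest value both came from KO. The KO minus WT difference was -0.19 ± 0.23 (log2, SE, n = 2 a group, adjusted p = 0.907, limma). On KO replicate 2 the probe was only just above background, with a detection p of 0.0464 against 0.00627 on KO replicate 1. Without that array the difference was 0.10. The signal therefore gives little room to see a lower level.

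Cd4, Cd8a and Cd8b1 lie on chromosome 6, as does Snd1, with 350 protein-coding genes between Snd1 and Cd8b1 and 771 between Snd1 and Cd4 in RefSeq. The CD8 coreceptor is a pair of chains, CD8 alpha, encoded by Cd8a, and CD8 beta, encoded by the neighbouring Cd8b1. The probe of Cd8a (ILMN_2935080) gave unnormalized signals of 86.5 to 95.1 and was above background on no array, so no level of Cd8a can be given, although T cells with CD8 are part of any spleen. Cd8b1 by contrast had bright probes. Its probe 1 (ILMN_2741169) read 11.91 and 11.33 in WT and 11.56 and 11.92 in KO, a difference of 0.12 ± 0.26 (adjusted p = 0.942, limma). Its probe 2 (ILMN_2664929) read 8.67 and 9.66 in WT and 10.08 and 9.06 in KO, a difference of 0.41 ± 0.47 (adjusted p = 0.895, limma). The probes of this 1 gene put the arrays in opposite orders. Probe 1 was high on WT replicate 1 and KO replicate 2, and probe 2 was high on WT replicate 2 and KO replicate 1. The gap of probe 2 was 0.99 between the WT arrays and 1.02 between the KO arrays, and only 3.87% and 1.41% of all tested probes had gaps as large. Without WT replicate 1 or KO replicate 1 the difference of probe 2 changed sign (-0.09 and -0.10), and without WT replicate 2 or KO replicate 2 that of probe 1 did (-0.17 and -0.07). The sources used here do not give which stretch of the Cd8b1 transcript each probe binds.

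Cd28, Ctla4 and Icos lie next to each other on chromosome 1, with 0 protein-coding genes between Cd28 and Ctla4 and 0 between Ctla4 and Icos. The 3 probes of Cd28, the activating receptor, gave differences close to 0. Probe 1 (ILMN_2591361) read 7.88 and 8.33 in WT and 8.26 and 7.94 in KO, probe 2 (ILMN_2589865) 7.66 and 8.17 in WT and 7.80 and 7.64 in KO, and probe 3 (ILMN_2589871) 7.41 and 7.97 in WT and 7.40 and 7.62 in KO. All 3 were highest on WT replicate 2, and in each the KO values lay among or beside those of WT. The differences were -0.01 ± 0.22, -0.19 ± 0.22 and -0.18 ± 0.23 (adjusted p = 0.998, 0.892 and 0.912, limma). The interval of the brightest probe ran from -0.58 to 0.56, so a change of Cd28 within this range could not be told from 0. Without WT replicate 2 all 3 differences were above 0, at 0.22, 0.07 and 0.10, and without KO replicate 2 that of probe 1 was 0.16.

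Icos, the receptor of activated and follicular helper T cells, had the 1 tested member probe whose KO values both lay above WT. This probe 1 (ILMN_2906430) read 7.73 and 7.74 in WT and 8.02 and 7.82 in KO. The WT arrays were nearly level here, 0.01 apart, and KO replicate 2 stood only 0.08 above them. The difference of 0.18 ± 0.15 (1.13-fold) did not pass (adjusted p = 0.819, limma), though its direction was kept under every alternative run, between 0.08 and 0.29. The dimmer probe 2 (ILMN_1221516) read 5.45 and 4.99 in WT and 5.02 and 5.30 in KO, was not above background on WT replicate 2, and gave -0.06 ± 0.22. Its sign turned without WT replicate 1 (0.17) or without KO replicate 1 (0.07).

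Ctla4, the inhibitory counterpart of Cd28, read 6.49 and 6.07 in WT and 7.21 and 6.26 in KO (ILMN_2631752). KO replicate 1 stood above the other arrays, while KO replicate 2 lay between the WT values. The difference was 0.46 ± 0.35 (1.37-fold, adjusted p = 0.807, limma), with an interval from -0.45 to 1.37. Without KO replicate 1 it was -0.02.

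Foxp3 showed the same order on KO. Its probe 1 (ILMN_2635132) read 6.80 and 6.60 in WT and 7.51 and 6.48 in KO, and its probe 2 (ILMN_2917180) 5.30 and 4.99 in WT and 6.01 and 5.03 in KO. Both probes were highest on KO replicate 1, and KO replicate 2 was below both WT arrays for probe 1 and between them for probe 2. The differences were 0.30 ± 0.36 and 0.37 ± 0.35 (adjusted p = 0.901 and 0.852, limma), and without KO replicate 1 they were -0.22 and -0.11. Probe 2 was not above background on WT replicate 2 and passed the filter through KO, and probe 3 (ILMN_1225330) was detected on no array. Between the KO arrays the gap was 1.03 and 0.98 for the Foxp3 probes and 0.95 for Ctla4, and 1.31%, 1.55% and 1.74% of all tested probes had a KO gap as large, against a median of 0.18. Between the WT arrays the same probes were 0.20, 0.32 and 0.42 apart, with 50.7%, 31.6% and 19.8% of all probes as far. KO replicate 1 is the array that carried the pancreas signal. The summed level of 17 pan T cell genes was 11568 on KO replicate 1 and 9229 on KO replicate 2, against 10378 and 12433 on the WT arrays. In this sum KO replicate 1 lay within the range of the WT arrays and KO replicate 2 below both. A high value on KO replicate 1 was not particular to Foxp3 and Ctla4. Tnfrsf4 read 8.12 and 8.02 in WT and 9.05 and 7.61 in KO, and Cd5 7.61 and 7.83 in WT and 8.43 and 7.63 in KO. Other T cell genes differed, with Cd3g highest on WT replicate 1 and Thy1 on WT replicate 2. The part of the pancreas signal or of the T cell level in the Foxp3 and Ctla4 values was not tested.

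**Figure D2:**
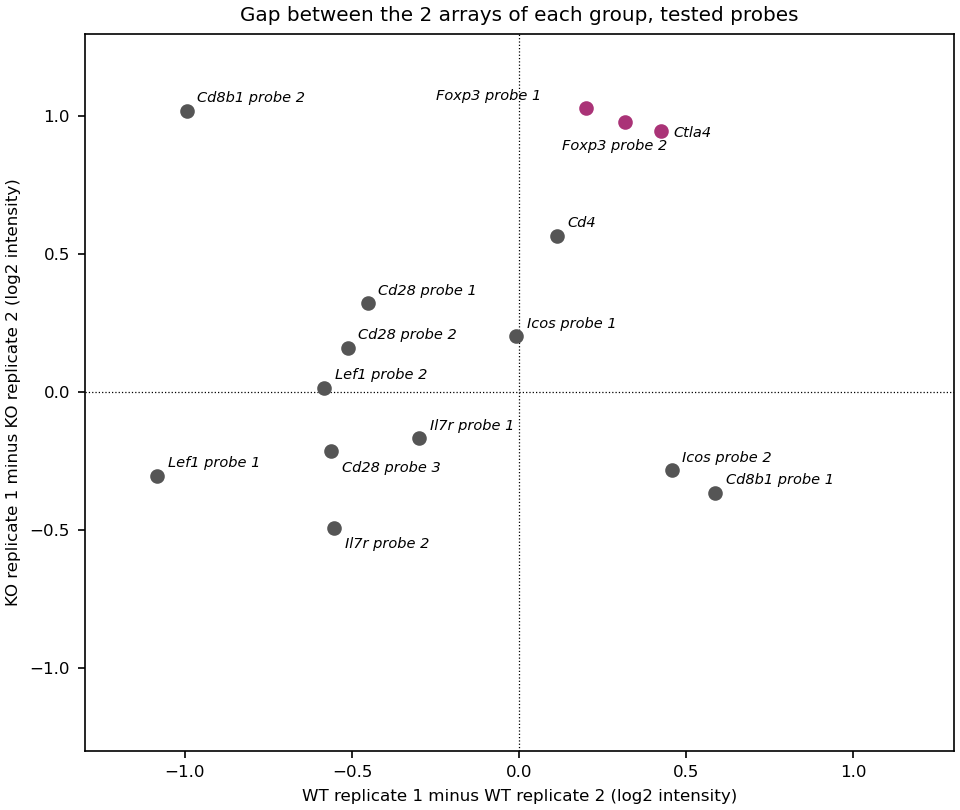
Difference between the replicates of a group for each tested probe, WT replicate 1 minus WT replicate 2 on the horizontal axis and KO replicate 1 minus KO replicate 2 on the vertical axis (both log2 intensity). The Foxp3 probes and Ctla4 (purple) lie together at KO gaps of 0.95 to 1.03 with WT gaps of 0.20 to 0.42, and Cd8b1 probes 1 and 2 lie in opposite corners.

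Promoter sequences of Ctla4 and Foxp3 are shown because both transcripts stood high on the same KO array, and that of Lef1 because its own factor and TCF-1 bind a common motif. They were taken from RefSeq (GRCm38.p6) and run 5' to 3' from 250 bases before to 50 after the start of the transcript. Capitals mark the letters of the TCF/LEF motif, CTTTGA, searched for on both strands. The Ctla4 window is chr1:60908775-60909074, + strand, the Foxp3 window chrX:7579426-7579725, + strand, the first of 2 starts, and the Lef1 window chr3:131156044-131156343, + strand, the fourth of 4 starts. The Lef1 window printed is the only 1 of the 4 that holds the motif. The window of its first start, chr3:131110047-131110346, holds 0 matches.
Ctla4: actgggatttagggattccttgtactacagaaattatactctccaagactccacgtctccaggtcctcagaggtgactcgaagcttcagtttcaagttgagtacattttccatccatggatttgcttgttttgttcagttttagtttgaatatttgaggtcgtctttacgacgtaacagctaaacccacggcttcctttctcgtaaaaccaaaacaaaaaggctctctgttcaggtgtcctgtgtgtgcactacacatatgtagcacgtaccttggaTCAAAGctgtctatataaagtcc
Foxp3: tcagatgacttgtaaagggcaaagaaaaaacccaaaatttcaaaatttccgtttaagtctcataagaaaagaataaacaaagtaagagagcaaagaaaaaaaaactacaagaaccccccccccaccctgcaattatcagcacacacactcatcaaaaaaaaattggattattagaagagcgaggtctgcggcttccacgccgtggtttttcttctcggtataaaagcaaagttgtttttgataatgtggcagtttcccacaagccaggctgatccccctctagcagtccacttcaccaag
Lef1: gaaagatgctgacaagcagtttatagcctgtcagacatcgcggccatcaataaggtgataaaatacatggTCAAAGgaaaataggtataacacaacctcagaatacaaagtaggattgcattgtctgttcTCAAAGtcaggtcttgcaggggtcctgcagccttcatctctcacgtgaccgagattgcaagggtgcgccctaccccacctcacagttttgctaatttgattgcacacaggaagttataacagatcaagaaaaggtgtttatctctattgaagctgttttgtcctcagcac
The motif was found once in the Ctla4 window, 27 bases after the start, in 0 of the 2 Foxp3 windows, and in 1 of the 4 Lef1 windows, which holds 2 matches. Over the 11 windows of the 6 listed genes that the table held, 2 had a match, beside 16% of all 32851 promoters in the table. The short NFAT core GGAAA, searched for on both strands, whose factors act downstream of the antigen receptor, was in 10 of the 11 windows and in 61.3% of all promoters. Of the 11 windows 4 are of Lef1, and those of its first 2 starts overlap, so the windows are not separate counts. A match is the presence of these letters and nothing more.

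Il7r encodes the chain through which naive and memory T cells receive the survival cytokine IL-7. Its probe 1 (ILMN_2680827) read 8.92 and 9.22 in WT and 8.79 and 8.96 in KO, a difference of -0.19 ± 0.17 (adjusted p = 0.847, limma). KO replicate 2 lay just above WT replicate 1, so the groups overlapped, and the direction was kept under every alternative run, between -0.34 and -0.04. Its probe 2 (ILMN_2659739) read 6.99 and 7.54 in WT and 6.94 and 7.43 in KO, with replicate 1 low in both groups, and gave -0.08 ± 0.27. The difference of probe 2 was above 0 without WT replicate 2 (0.19) or KO replicate 1 (0.16). Probe 3 (ILMN_2975500) was detected on no array.

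Lef1 held the largest difference among the members and the 1 probe with an unadjusted p under 0.05. Its dimmer probe 2 (ILMN_1239469) read 5.70 and 6.28 in WT and 5.23 and 5.21 in KO. Both KO arrays lay below both WT arrays and were 0.02 apart, while the WT arrays were 0.58 apart. The difference was -0.76 ± 0.23 (1.7-fold lower), with an interval from -1.35 to -0.18, an unadjusted p of 0.0203 and an adjusted p of 0.771 (limma). On the KO arrays the probe was near background, with detection p of 0.015 and 0.020. The lowest detected values there were 4.93 and 4.97. The filter at a detection p under 0.01 on every array left this probe out, and every other alternative run kept its direction. The difference was -1.06 without WT replicate 1 and -0.48 without WT replicate 2. Without background correction it was -0.29, with an unadjusted p of 0.0557 (limma). The brighter probe 1 (ILMN_2648475) read 6.04 and 7.12 in WT and 6.03 and 6.34 in KO. Here WT replicate 2 alone stood high, by 1.08 over WT replicate 1, a gap that 3.33% of all tested probes reached, and the groups overlapped. The difference of -0.40 ± 0.38 (adjusted p = 0.856, limma) was 0.14 without WT replicate 2. WT replicate 2 was thus the highest array for both Lef1 probes, both detected Il7r probes and all 3 Cd28 probes, 7 of the 15 tested, and KO replicate 1 was the highest for 6. The summed level of the 11 B cell genes was also highest on WT replicate 2, at 24738 against 16033 to 22616 on the others, as was that of the pan T cell genes. Their part in these values was not tested.

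**Figure D3:**
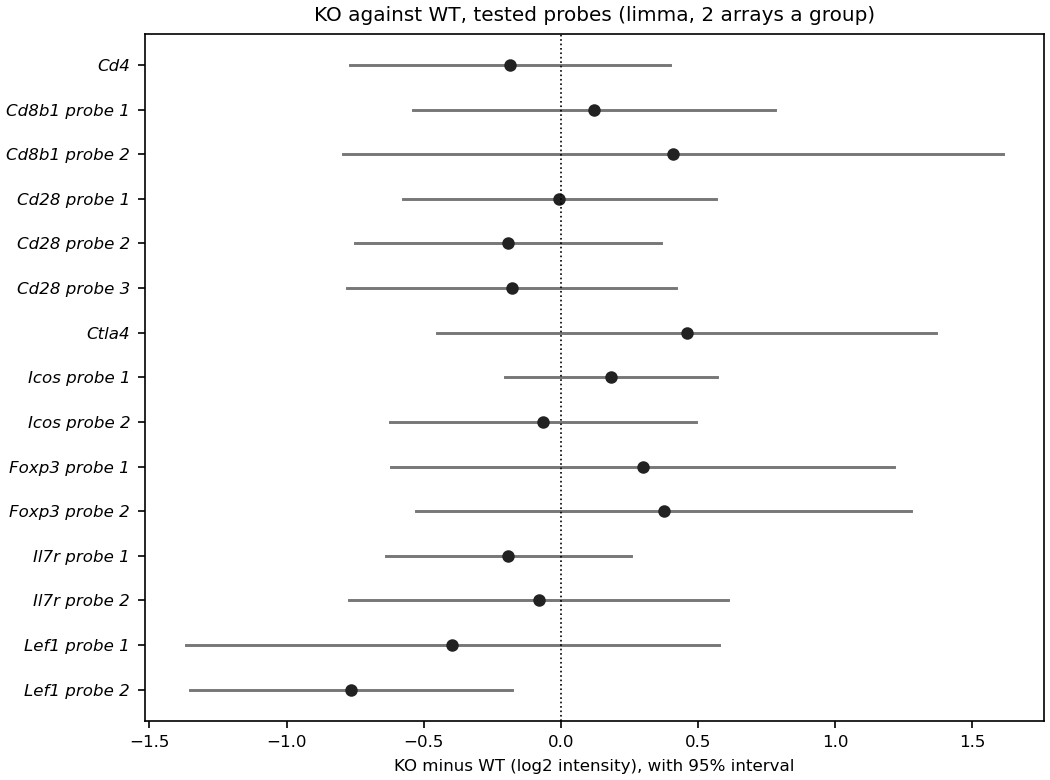
KO minus WT difference of each tested probe (horizontal axis, log2 intensity; point) with its 95% interval (line) from limma. The intervals of 14 of the 15 probes include 0, and that of Lef1 probe 2 runs from -1.35 to -0.18.

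Genes that act with the members were followed in 8 lists: 86 genes were tested, each by its brightest probe, and 0 passed at an adjusted p under 0.05 (limma), where 0.0229% of all 8716 tested genes did. At an unadjusted p under 0.05, 8 of the 86 were lower in KO and 0 higher, beside 2.51% of all genes lower and 3.49% higher. The 8 were the surface receptors Tnfrsf18, Tnfrsf14 and Gpr83, the adaptors Grap2, Lat and Trat1, the receptor chain Cd3g and the transcription factor Stat5a. Lat and Tnfrsf14 were detected on no KO array and entered the test through WT, where they read high, so this count rests in part on the filter. The lists were also chosen with earlier results of these data known, so the count is not independent of the data.

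Among the costimulation and coinhibition partners 8 of 17 tested genes had a higher mean in KO and 9 a lower one, with a median of -0.02 against 0.00 over all genes. Of the ligands of CD28 and CTLA-4, Cd86 read 10.96 and 11.01 in WT and 11.14 and 11.27 in KO (0.22 ± 0.14, adjusted p = 0.774, limma) and Cd80 6.57 and 6.85 in WT and 7.14 and 6.65 in KO (0.18 ± 0.22, adjusted p = 0.907, limma). The 4 Cd86 values did not overlap between groups, but a second Cd86 probe read 10.73 and 10.80 in WT and 10.72 and 10.78 in KO, and the dimmest lay lower in KO, at 8.14 and 8.25 in WT and 7.85 and 8.07 in KO. The Cd80 values overlapped, and its difference was -0.07 without KO replicate 1. No probe was matched to Icosl, the ligand of ICOS. Tnfrsf18, which encodes the costimulatory receptor GITR of regulatory and activated T cells, read 8.19 and 8.71 in WT and 7.81 and 7.18 in KO (-0.96 ± 0.29, unadjusted p = 0.0216, adjusted p = 0.771, limma). Its other probe, at 7.74 and 8.28 in WT and 7.71 and 6.87 in KO, had the same order of group means. Tnfrsf14, the ligand of the inhibitory receptor BTLA, read 5.30 and 5.93 in WT, was not above background on either KO array and was at least 1.59-fold lower (adjusted p = 0.771, limma). Its difference was -0.76 as normalized and -0.26 without background correction, and -0.45 without WT replicate 2. Lag3, an inhibitory receptor that binds class II molecules, read 7.46 and 6.64 in WT and 8.03 and 7.44 in KO, with overlapping groups (0.68 ± 0.35, adjusted p = 0.771, limma), and gave 0.27 without WT replicate 2 and 0.39 without KO replicate 1.

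In the list of CD28 and T cell receptor signalling 7 of 13 genes had a higher mean and 6 a lower one (median 0.08). Grap2, an adaptor of the antigen receptor, was the 1 lower gene with an unadjusted p under 0.05, at 6.90 and 7.12 in WT and 6.38 and 6.53 in KO (-0.56 ± 0.16, adjusted p = 0.771, limma). Rel, the NF-kB subunit c-Rel, was above background on the KO arrays only and was at least 1.15-fold higher (adjusted p = 0.771, limma). Rel was 1 of 2 genes of this list that entered the test through KO alone, which favours a higher mean. Its difference was 0.38 as normalized and 0.13 without background correction. Prkcq, the kinase that links CD28 to NF-kB, gave -0.26 ± 0.20, and -0.04 without WT replicate 2. Of the factors that direct the CD4 and CD8 lineages 2 of 8 had a higher mean (median -0.08), and the chromatin organiser Satb1 (-0.29), Runx1 (-0.21) and Ets1 (-0.16), those with the smallest p, all overlapped between groups and were each highest on WT replicate 2. Without that array Satb1 was at -0.08, and without KO replicate 1 at -0.11. The signs of Runx1 and Ets1 turned without WT replicate 2 (0.05 and 0.03), and that of Ets1 also without KO replicate 1 (0.01).

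Among regulatory T cell genes other than the members 5 of 6 tested genes, each by its brightest probe, had a higher mean in KO (median 0.22). Itgae and Klrg1 were higher through KO replicate 1 alone, and were lowest on KO replicate 2, at 7.29 and 5.90. Other tested Itgae probes gave -0.02 and -0.26. Tnfrsf18, counted in the costimulation list, was lower, at -0.96 and -0.72. Gpr83, a receptor abundant in regulatory T cells, was the lower gene of this list and had its smallest p. It read 7.54 and 7.79 in WT and 5.79 and 6.69 in KO, a difference of -1.42 ± 0.32 with an unadjusted p of 0.0070 and an adjusted p of 0.771 (limma). It was lowest on KO replicate 1, the array on which Foxp3 and Ctla4 read highest. Nt5e, the ectoenzyme CD73, was at 8.23 and 7.81 in WT and 9.07 and 8.25 in KO (0.64 ± 0.32, adjusted p = 0.771, limma), highest on KO replicate 1 as Foxp3 was and at 0.23 without that array. Ebi3, a subunit of the cytokine IL-35, was at 7.70 and 7.74 in WT and 7.87 and 8.08 in KO (0.26 ± 0.15, adjusted p = 0.771, limma). Of the 14 genes of this list on the array 8 were not tested. Gpr83, Tnfrsf18 and Foxp3, all of which regulatory T cells express, thus did not share 1 order of arrays.

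**Figure D4:**
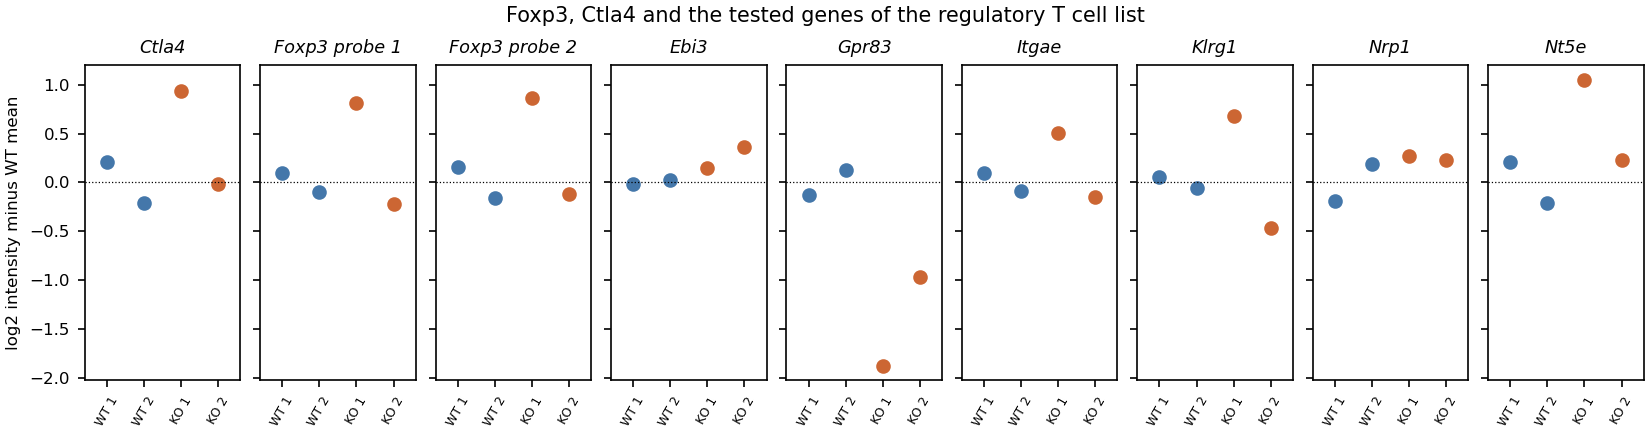
Log2 intensity minus the mean of the WT arrays (vertical axis) on each array for Ctla4, both tested Foxp3 probes and the 6 tested genes of the regulatory T cell list. Ctla4, Foxp3, Itgae, Klrg1, Nt5e and, by a small margin, Nrp1 are highest on KO replicate 1, where Gpr83 is lowest.

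The genes of naive and memory T cells, to which Il7r and Lef1 are related, had 6 higher and 4 lower means of 10 (median 0.05). Igfbp4 (0.35) and Actn1 (0.30), both transcribed in naive T cells, and Cxcr3 (0.65), a chemokine receptor of effector and memory T cells, had both KO values above both WT values, each with an adjusted p of 0.771 (limma). They were named for the smallest p of the list, which favours such an order, and 19.4% of all tested probes had it. Cxcr3 read 7.67 and 7.72 in WT and 8.82 and 7.87 in KO, and without KO replicate 1 its difference was 0.17. In the IL-7 pathway 4 of 7 genes had a higher mean (median 0.05). Stat5a, which the IL-7 receptor activates, read 6.55 and 6.85 in WT and 6.29 and 6.14 in KO (-0.48 ± 0.17, unadjusted p = 0.0364, adjusted p = 0.771, limma), but its dimmer probe read 5.12 and 5.30 in WT and 5.47 and 5.14 in KO. The cytokine Il7 (0.23), the kinase Jak3 (0.34) and the survival gene Mcl1 (0.17) overlapped between groups. Without WT replicate 1 Il7 turned to -0.19 and Mcl1 was at 0.01, and without WT replicate 2 Jak3 was at 0.13. Of the partners of TCF and LEF factors 8 of 10 had a higher mean (median 0.11), with the family member Tcf7l1 at 8.22 and 8.36 in WT and 8.57 and 8.72 in KO (0.36 ± 0.15, adjusted p = 0.771, limma). The corepressor Tle1 (0.16) and the coactivator Pygo2 (0.13) followed.

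The pan T cell genes give the background against which the subset genes are read, and 9 of 15 had a lower mean in KO (median -0.19). The 6 with a higher mean were Cd5 (0.31), Sh2d2a (0.18), Zap70 (0.17), Cd6 (0.10), Cd3e (0.07) and Ubash3a (0.06). Lat, the adaptor that passes on the signal of the antigen receptor, read 6.38 and 6.86 in WT, was not above background on either KO array and was at least 3.18-fold lower (adjusted p = 0.238, limma). This bound depends on the background step, since the difference was -2.08 as normalized, -1.21 with an offset of 50 and -0.85 without background correction or with the authors' values. Trat1, another adaptor of the receptor complex, read 7.22 and 7.94 in WT and 6.55 and 6.99 in KO (-0.81 ± 0.30, adjusted p = 0.771, limma). Its dimmer probe overlapped between groups, at 5.61 and 6.02 in WT and 4.95 and 5.62 in KO (-0.53). Cd3g read 10.57 and 10.54 in WT and 10.19 and 9.81 in KO (-0.55 ± 0.18, adjusted p = 0.771, limma). The adhesion protein Thy1, the brightest of the list, read 10.71 and 10.84 in WT and 10.81 and 10.37 in KO, with overlapping groups (-0.19 ± 0.20, adjusted p = 0.882, limma). Beside the list median, the differences were -0.01 to -0.19 for Cd28, -0.08 and -0.19 for Il7r and -0.19 for Cd4. Those of Lef1 were lower, at -0.40 and -0.76. Icos lay at 0.18 and -0.06, Cd8b1 at 0.12 and 0.41, Foxp3 at 0.30 and 0.37 and Ctla4 at 0.46. No test was made between the members and this list.

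**Figure D5:**
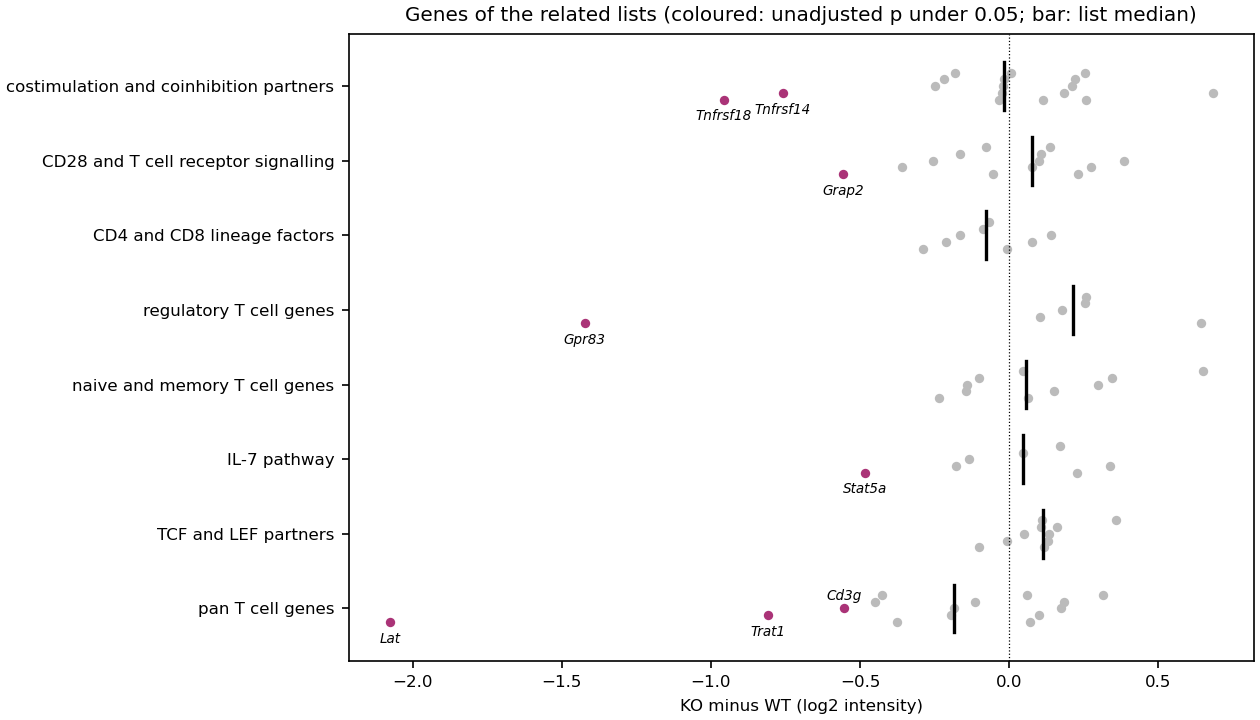
KO minus WT difference (horizontal axis, log2 intensity) of every tested gene of the 8 related lists (1 list a row, 1 point a gene, spread vertically for legibility only). The 8 coloured genes, with an unadjusted p under 0.05, all lie below 0, and the medians (bars) lie between -0.19 and 0.22.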

How the data were processed

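RNA of 2 WT and 2 KO spleens was hybridised to 1 array each, and the titles gave group and replicate number. The deposited signal table holds linear probe intensity values, exported by the authors from GenomeStudio and not normalized. The detection column beside each signal was deposited as a fraction. It grows with brightness (Spearman correlation with the signal 0.975 to 0.991), so a probe's detection p was taken as 1 minus this value. A second table of the authors holds log2 values with column medians of 6.82. They equalled the quantile-normalized log2 signals to within 5.00e-09 for all probes but 1. The authors' 2-group test in Chipster was named without settings.

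Background was removed by normexp, with negative controls deduced from the detection p and an offset of 16, before quantile normalization and log2 transformation (neqc in limma 3.58.1, R 4.3.3). The filter kept 12493 probes that had a detection p under 0.05 in both samples of WT, of KO or of both groups. They were compared by lmFit and eBayes without pairing (total degrees of freedom 5.04), and p-values were adjusted by Benjamini-Hochberg over these probes with a threshold of 0.05. Values per gene are those of its brightest probe in that fit. The platform annotation gave 1 symbol to 23978 probes and none to 1719. For a probe detected on neither array of a group, "at least" marks a fold computed against the lowest detected value, or the probe's own value where higher. Summed levels add the linear values of each gene's brightest probe.

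All member probes were named, and from each related list the 3 tested genes with the smallest p. Also named were Cd80, Cd86, Icosl and Il7, the brightest gene of a list and the pan T cell genes with a higher mean in KO. The members and lists were chosen with earlier results of these data known. With 2 arrays a group the smallest exact two-sided permutation p is 0.333, so none was computed. No slide or scan batch is named in the sources used here, and none was tested. The alternatives were: the signals without background correction; an offset of 50; median scaling; the authors' log2 table; all probes tested; only probes with a detection p under 0.01 on every array; a prior with trend and robust options; no moderation; the replicate number as a block; the mean of a gene's probes; and leaving out each array in turn.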

Additional observations from a re-analysis of the deposited data

How the results depend on the processing

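Under every alternative run, 0 member probes passed the adjusted threshold. For the related lists, counted without each array in turn and with the mean of a gene's probes, 0 genes passed. The lowest adjusted p of a member was 0.273 (limma, Lef1 probe 2 without WT replicate 1). Over all probes the count of 2 went to 0 without background correction, with the authors' table, without a filter and without moderation, to 4 with an offset of 50, and to 8 with a trend and robust prior, and ran from 0 to 14 when 1 array was left out (14 without WT replicate 1). The gaps between replicates 1 and 2 in WT and in KO correlated at 0.19 over the tested probes. This value cannot decide whether the replicate numbers pair the arrays. With the replicate block the count was 0 and no call of a member changed. Median scaling moved the split at an unadjusted p under 0.05 from 414 higher and 347 lower to 555 and 238. Of 191 recomputed member values 173 kept their direction and 18 turned. With all arrays kept, only Cd28 probe 1 turned, to 0.037 with median scaling.

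When 1 array was left out the differences ran from -0.23 to 0.22, -0.45 to 0.065 and -0.46 to 0.10 for Cd28 probes 1 to 3, from -0.46 to 0.10 for Cd4, from -0.17 to 0.41 and -0.10 to 0.92 for Cd8b1 probes 1 and 2, and from -0.018 to 0.93 for Ctla4. They ran from -0.22 to 0.81 and -0.11 to 0.86 for Foxp3 probes 1 and 2, from -0.30 to 0.17 for Icos probe 2, from -0.36 to 0.19 for Il7r probe 2 and from -0.94 to 0.14 for Lef1 probe 1. Those of Cd80 ran from -0.066 to 0.43, of Ets1 from -0.36 to 0.031, of Il7 from -0.19 to 0.65 and of Runx1 from -0.47 to 0.045. The medians of the lists moved to 0.12 and 0.13 for costimulation partners without WT or KO replicate 2, to -0.02 for CD28 signalling without WT replicate 2, to -0.32 for lineage factors without WT replicate 1 and to 0.48 for naive and memory genes without KO replicate 2. Without background correction Gpr83 was at -0.83, Grap2 at -0.31, Stat5a at -0.25 and Trat1 at -0.52. Trat1 was at -0.45 without WT replicate 2, Igfbp4 at 0.20 and Gpr83 at -0.97 without KO replicate 1, Ebi3 at 0.15 and Tle1 at 0.04 without KO replicate 2, and Actn1 at 0.20 and Pygo2 at 0.06 without WT replicate 1. The causes were not tested. Without KO replicate 2, which leaves 1 KO array, Ctla4 was at 0.93 and Foxp3 probes 1 and 2 at 0.81 and 0.86. Without WT replicate 1, which leaves 1 WT array, Lef1 probes 1 and 2 were at -0.94 and -1.06. With 1 array in a group such a fit holds no spread within that group. Dim probes such as those of Cd4, Cd8a, Foxp3 probe 3 and, on the KO arrays, Lef1 probe 2 lie at or near background, which limits what a lower level could show.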

Other observations

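The array order of Cd8b1 probe 2, high on WT replicate 2 and KO replicate 1, was also seen in genes of other lists, which were picked after their values were seen. The brightest probe of Cd44, an adhesion receptor of activated and memory T cells, read 7.87 and 9.16 on the WT arrays and 9.01 and 8.14 on the KO arrays. A probe of Cd27, a costimulatory receptor of the TNF receptor family, read 6.85 and 7.83 in WT and 7.41 and 6.89 in KO, and its brightest probe 10.75 and 11.19 in WT and 11.15 and 10.75 in KO. A dimmer Cd44 probe did not share this order, at 6.12 and 6.39 in WT and 6.13 and 6.2 in KO. Nor did another Cd44 probe detected on every array, at 5.30 and 5.07 in WT and 5.11 and 5.15 in KO.

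Of 6 early lymphoid progenitor genes on the array, which mark developing lymphocytes, 1 was detected on each array but KO replicate 1, where 4 were. The brightest, Vpreb3, a B lineage chain, read 9.63 and 9.94 in WT and 9.11 and 9.40 in KO. All 9 neutrophil granule genes had a lower mean in KO (median -1.56), with a summed linear level of 6865 and 5508 in WT and 3894 and 1279 in KO, while the 8 NK cell genes on the array, which cytotoxic T cells share in part, summed to 3109 and 3810 in WT and 3803 and 2914 in KO and overlapped between groups.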
